A study of Mus musculus with 24 samples.

Results

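LMPP were compared with HSC among Rag2-GFP-negative bone marrow cells of control mice, across all genes. The libraries were those whose labels read Ctrl and Rag2-GFP negative, which gave 3 libraries of CD135-positive LSK cells (LMPP, lymphoid-primed multipotent progenitors) and 3 of CD135-negative LSK cells (HSC, haematopoietic stem cells). These are 6 of the 24 libraries of the series. LSK cells are the lineage-negative, Sca-1-positive, Kit-positive compartment of mouse bone marrow. Ctrl animals are labelled wild type with floxed Tal1 alleles (Tal1 F/F) and carried the Rag2GFP reporter, and no Cre is named for them. The other genotype (KO) had VaviCre, which is active across blood cells, together with Tal1 F/F and Rag2GFP. The series sorted CD135-positive and CD135-negative LSK cells of each genotype into GFP-negative and GFP-positive cells, in 8 groups of 3 libraries. The labels give neither age nor strain. Whether replicates came from separate animals is not labelled. The p-values set each difference against a spread pooled over all 24 libraries, not over these 6 alone. That spread may be technical in part.

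HSC renew themselves and give rise to every blood lineage. The CD135-negative LSK gate is wider than the stem cell and also holds multipotent progenitors with megakaryocyte and erythroid potential. LMPP keep lymphoid and granulocyte-monocyte potential and have lost most megakaryocyte and erythroid potential. CD135 is the protein of Flt3, a receptor tyrosine kinase, so Flt3 RNA here checks the gate and is no finding. Rag2 encodes part of the recombinase that assembles antigen receptor genes, and its reporter divides cells that have begun that programme from those that have not.

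The values were the authors' normalised counts, with totals between 6939316 and 7697650 in the LMPP libraries and between 6934535 and 8704419 in the HSC libraries. Between 15215 and 15845 genes exceeded 1 normalised count in LMPP and between 15226 and 15798 in HSC. Mitochondrially encoded genes took 21.7 to 27.9% of the total in LMPP and 24.7 to 28.3% in HSC. Ribosomal protein genes took 3.47 to 3.94% and 3.12 to 3.74%. The exact two-sided permutation p of these 4 measures was 0.4, 0.6, 0.7 and 0.3, where 3 against 3 libraries allow no less than 0.1. In a principal component analysis of the 6 libraries HSC replicate 3 stood apart on the first component at 105.2, against -42.4 to -10.4 in the other 5, and that component held 32.4% of the variance. The sex-linked genes showed replicate 3 of both populations to differ in sex from replicates 1 and 2, so sex was balanced between the groups and replicate 3 came from another animal than the other replicates. Sequencing depth in reads is unknown.

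Flt3 RNA followed the CD135 gate in all 6 libraries. Flt3 (chromosome 5, 147330741 to 147400489, minus strand) stood at 597, 759 and 1033 normalised counts in HSC and at 4472, 4473 and 4813 in LMPP. The groups did not overlap, and the log2 difference was 2.55 (SE 0.40, limma adjusted p = 0.00152). Kit was between 5460 and 6504 in HSC and between 4323 and 5109.8 in LMPP. Ly6a, which encodes Sca-1, was 118, 217 and 242 in HSC and 416, 764 and 878 in LMPP, and its log2 difference of 1.81 did not pass (limma adjusted p = 0.556). Rag2 was 4.99, 30.0 and 48.4 in HSC and 60.2, 88.0 and 167 in LMPP, higher in every LMPP library, at 1.99 on the log2 scale (limma adjusted p = 0.139).

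The stem cell regulators gave a mixed picture of the HSC label. Mecom, a zinc-finger factor needed for stem cell maintenance, was 446, 372 and 617 normalised counts in HSC and 664, 655 and 549.5 in LMPP. Hlf, a bZIP factor of stem cells, was 3217 to 5135 in HSC and 5811 to 7215 in LMPP. Procr, the protein C receptor used to enrich stem cells, was 125, 81.5 and 198 in HSC and 179, 203 and 162 in LMPP. None of these 3 was lower in LMPP on the log2 scale, and none passed (log2 differences 0.40, 0.65 and 0.50, limma adjusted p = 1 for each). Slamf1, the CD150 surface receptor of stem cells, was 105, 129.8 and 136 in HSC and 16.9, 17.2 and 43.3 in LMPP, without overlap. Its log2 difference of -2.20 did not pass (SE 0.59, limma adjusted p = 0.164), though it passed in 3 of 20 other fits.

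Of 16215 genes tested, 60 passed (0.37%) at a limma adjusted p under 0.05, with differences on the scale log2(normalised count + 4.1), which understates those of genes near 0. LMPP were higher for 19 (0.117%) and lower for 41 (0.253%). The 3 libraries of each group did not overlap for 2398 genes (14.8%), with LMPP above for 1245 (7.68%) and below for 1153 (7.11%), and the median log2 difference over all genes was 0.01. An unadjusted p under 0.05 was reached by 745 genes (4.59%). The genes that rose had a median log2 difference of 3.20, from 1.20 to 4.01, and those that fell a median of -4.09. Of the 41 that fell, 35 had a mean under 10 normalised counts in LMPP, so most falls ended near the lowest values the libraries hold. In bulk samples fewer cells of a type and less RNA per cell cannot be told apart.

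**Figure D1:**
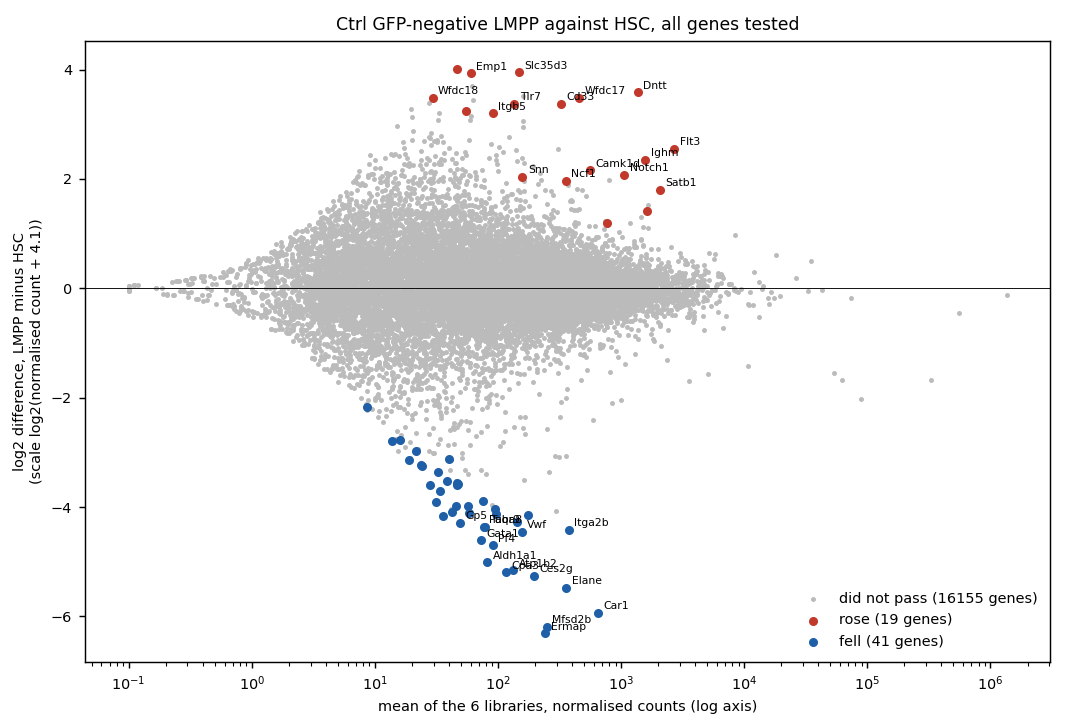
Mean level of each of the 16215 genes tested over the 6 libraries (x axis, normalised counts, log axis) against the log2 difference of LMPP minus HSC (y axis). Red points are the 19 genes that rose and blue points the 41 that fell by limma's test. Labelled genes are the 15 largest of each direction once predicted genes are left out. The largest rise of all, the predicted gene Gm28685 at 4.01, is therefore not labelled. The falls reach further from 0 than the rises, down to -6.31 for Ermap.

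Promoters are shown for a pair of genes that rose, Flt3 and Dntt, and a pair of platelet genes that fell, Pf4 and Gp5, because the study concerns TAL1, a basic helix-loop-helix factor that binds DNA with GATA factors. E-boxes are the sites of basic helix-loop-helix factors, and GATA factors bind the core of the letters AGATAA. Each line holds the 250 bases before the RefSeq transcription start (GRCm38.p6), read 5′ to 3′ on the gene's own strand, with E-boxes (CAGCTG or CAGATG) and the GATA motif AGATAA on either strand in capitals.
Flt3, chr5:147400490-147400739, minus strand: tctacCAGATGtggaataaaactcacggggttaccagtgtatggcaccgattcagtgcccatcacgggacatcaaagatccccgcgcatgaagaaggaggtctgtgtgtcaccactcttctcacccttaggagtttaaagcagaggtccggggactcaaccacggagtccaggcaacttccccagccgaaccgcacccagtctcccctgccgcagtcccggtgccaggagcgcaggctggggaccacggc
Dntt, chr19:41029025-41029274, plus strand: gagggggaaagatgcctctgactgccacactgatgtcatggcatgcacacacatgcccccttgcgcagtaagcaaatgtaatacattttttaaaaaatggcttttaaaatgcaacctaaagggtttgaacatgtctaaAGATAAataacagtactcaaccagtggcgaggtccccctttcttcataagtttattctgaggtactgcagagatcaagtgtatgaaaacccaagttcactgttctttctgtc
Pf4, chr5:90772185-90772434, plus strand: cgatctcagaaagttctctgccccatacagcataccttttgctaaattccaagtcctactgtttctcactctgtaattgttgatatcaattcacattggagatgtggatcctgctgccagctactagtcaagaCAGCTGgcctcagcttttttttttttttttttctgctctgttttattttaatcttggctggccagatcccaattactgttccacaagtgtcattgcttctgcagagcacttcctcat
Gp5, chr16:30310782-30311031, minus strand: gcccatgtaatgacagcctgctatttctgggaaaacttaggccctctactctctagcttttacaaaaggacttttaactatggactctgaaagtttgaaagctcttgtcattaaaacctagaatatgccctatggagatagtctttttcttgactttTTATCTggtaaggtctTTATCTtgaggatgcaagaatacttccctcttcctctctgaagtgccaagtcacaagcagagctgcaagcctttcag
The letters CAGATG began 245 bases before the Flt3 start, and AGATAA began 112 bases before the Dntt start. Pf4 had CAGCTG from 117 bases before its start, and a further AGATAA from 36 bases after it. Gp5 held AGATAA on the opposite strand at 93 and 77 bases before its start, where the printed strand reads TTATCT.

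Promoters of 300 bases (250 before to 50 after the start) were matched by symbol for 16 of the 19 genes that rose, 30 of the 41 that fell and 10822 of 16213 symbols tested. Both strands were searched for 4 motifs, none of which contains another. AGATAA was held by 8 of the 30 promoters of genes that fell (26.7%), 1 of the 16 of genes that rose (6.25%) and 6.8% of all. The 8 genes were Ces2g, Cpa3, Fgf3, Gm28857, Gp5, Pf4, Pklr and Tek, named for their motif. CAGCTG was held by 16.7% of those that fell, 18.8% of those that rose and 15% of all, and CAGATG by 13.3, 18.8 and 11.9%. CGGAAG, the core of ETS factor sites, was held by 3.33, 6.25 and 30.9%. A match of letters is a description of these windows and was not tested.

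Genes of lymphoid priming were higher in LMPP. Of 21 listed genes tested 4 rose and none fell (0.117% of all genes rose). The median log2 difference was 1.18 against 0.01 over all genes. In 12 every LMPP library lay above every HSC library (7.68% of all genes). Dntt, the terminal transferase that adds nucleotides at antigen receptor joints, stood at 136, 262 and 241 normalised counts in HSC and at 1978, 3112 and 2505 in LMPP. The lowest LMPP library was far above the highest HSC library. The log2 difference was 3.58 (SE 0.44, limma adjusted p = 0.000288), the smallest p of all genes.

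Notch1, the receptor that directs early progenitors towards the T lineage, was 270.2, 502 and 464 in HSC and 1819, 1872 and 1419.8 in LMPP. Its log2 difference was 2.08 (SE 0.28, limma adjusted p = 0.000712), again without overlap. Among 11 Notch pathway genes tested it was the 1 that passed (0.37% of all genes passed), and the list's median was 0.14. Its relative Notch2 was 1842 to 2262 in HSC and 2287 to 2807 in LMPP, a log2 difference of 0.29 that did not pass. Rbpj, the DNA-binding partner of the Notch intracellular domain, was 508 to 642 and 489 to 822, overlapping.

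Ighm, the immunoglobulin mu heavy chain constant region, was 653, 401 and 484 in HSC and 2099.8, 3364 and 2425 in LMPP. It rose by 2.35 (SE 0.34, limma adjusted p = 0.00116). Satb1, a chromatin organiser of lymphoid cells, was 621, 1107 and 1085 in HSC and 2496, 3412 and 3728 in LMPP, a rise of 1.80 (limma adjusted p = 0.00175). All LMPP libraries of both genes were above all HSC libraries.

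Other members of the list did not pass. Il7r, the interleukin-7 receptor chain, was 0, 0.0994 and 4.04 in HSC and 2.76, 9.68 and 20.1 in LMPP, low in both populations. Rag1 was likewise low, at 2.23 to 12.5 in HSC and 8.35 to 20.1 in LMPP. The lymphoid transcription factor genes Ikzf1 (2399 to 3027 against 3513 to 4323), Mef2c (1681 to 1809.6 against 1942 to 2809.6) and Runx2 (2092 to 2690.0 against 3079 to 3543) were high in both populations and higher in every LMPP library. Their log2 differences were 0.52, 0.46 and 0.49, with limma adjusted p of 0.972, 1 and 0.972. B lineage genes (8 tested, median 0.08) and T and NK lineage genes (11 tested, median 0.21) had no member that passed. Lck, a kinase of T cells, was 8.98, 30.6 and 43.5 in HSC and 102, 122 and 140.3 in LMPP, at a limma adjusted p of 0.95.

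**Figure D2:**
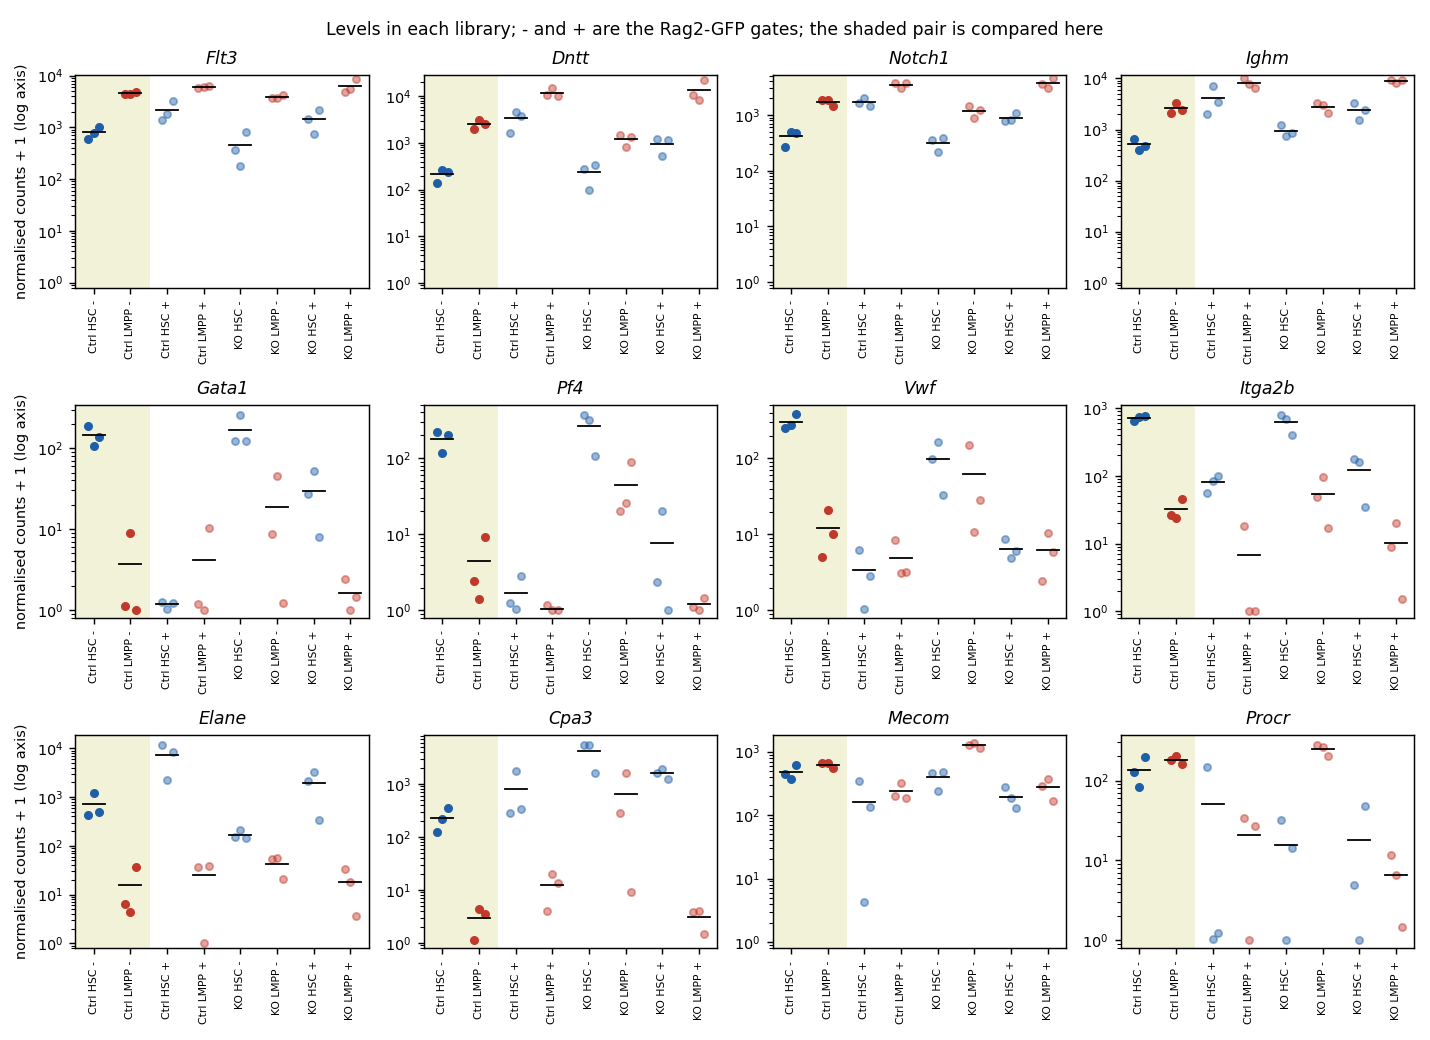
Normalised counts plus 1 (y axis, log axis) of 12 genes in each library of the 8 groups; blue points are HSC, red points LMPP, the line is the mean of 3 libraries, and the shaded pair is Ctrl GFP-negative. In the shaded pair Flt3, Dntt, Notch1 and Ighm are higher in LMPP, Gata1, Pf4, Vwf, Itga2b, Elane and Cpa3 lower, and Mecom and Procr overlap.

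Several receptor and myeloid genes rose beside the lymphoid ones. Tlr7, the endosomal receptor of single-stranded RNA, was between 17.9 and 24 normalised counts in HSC and between 246 and 254.5 in LMPP. The spread within each population was small, and the log2 difference was 3.37 (SE 0.52, limma adjusted p = 0.00152). Cd33, a sialic acid-binding receptor of myeloid cells, was 26.1, 71.6 and 78.9 in HSC and 636, 626 and 515 in LMPP, a rise of 3.37 (limma adjusted p = 0.0108). Ncf1, a cytosolic subunit of the phagocyte NADPH oxidase, was 78.2, 233 and 136 in HSC and 380.2, 630.2 and 665 in LMPP, a rise of 1.97 (limma adjusted p = 0.0265). In all 3 genes the populations did not overlap.

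The secreted whey acidic protein-type genes Wfdc17 and Wfdc18, neighbours on chromosome 11, rose together. Wfdc17 was 80.6, 72.8 and 59.9 in HSC and 942, 971 and 618.5 in LMPP. Wfdc18 was 3.83 in HSC replicate 1, listed at 0 in the other 2, and 94.1, 39.3 and 39.3 in LMPP. Both log2 differences were 3.48 (limma adjusted p = 0.0112 and 0.0389). The remaining named genes that rose were Slc35d3 (3.95, 6.99 to 23.7 against 212 to 355), Emp1 (3.93, 0.432 to 11.3 against 55.2 to 187), Itgb5 (3.20, 2.99 to 23.6 against 123 to 237), Camk1d (2.16, 119 to 349 against 706 to 1140.2) and Snn (2.04, 31.9 to 108 against 233 to 282). Camk1d is a calcium/calmodulin-dependent kinase, Emp1 a membrane protein, Slc35d3 a solute carrier and Itgb5 an integrin beta chain.

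Megakaryocyte and platelet genes were lower in LMPP. Of 16 tested 6 fell and none rose (0.253% of all genes fell), and 9 were lower in every LMPP library (7.11% of all genes). The median log2 difference of the list was -1.99. Their summed level was 621 to 883 ppm of the library total in HSC and 386 to 633 ppm in LMPP, so the ranges overlapped. Pf4, a chemokine of platelet granules (chromosome 5, 90772435 to 90773383), was 219.9, 115 and 199 normalised counts in HSC and 1.45, 0.395 and 8.35 in LMPP. It was near 0 in every LMPP library and fell by 4.70 (SE 0.72, limma adjusted p = 0.00148).

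Gp5, a subunit of the platelet receptor for von Willebrand factor, was 98.6, 110.3 and 82.8 in HSC and 4.09 in LMPP replicate 1, and it was listed at 0 in the other 2 LMPP libraries. It fell by 4.29 (SE 0.64, limma adjusted p = 0.00148). Vwf, von Willebrand factor itself, was 249.5, 277 and 378 in HSC and 4.09, 20.1 and 9.01 in LMPP, a log2 difference of -4.45 (limma adjusted p = 0.00408). Itga2b, the CD41 integrin chain, was 644, 749 and 773 in HSC and 25.1, 23.0 and 45.1 in LMPP, a log2 difference of -4.42 (limma adjusted p = 0.00399). Rab27b, a GTPase of granule release, and Treml1, a receptor of platelet granules, fell by 3.56 and 3.24 (limma adjusted p = 0.0139 and 0.00399). Treml1 was 53.5, 80.7 and 7.98 in HSC, lowest in replicate 3, and 0.107 or listed at 0 in LMPP. Plek, a protein kinase C substrate of platelets, was 970.2 to 1506 in HSC and 1227 to 1577 in LMPP, overlapping.

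Erythroid genes were lower as well. Of 23 tested 4 fell and none rose (0.253% of all genes fell), and 13 were lower in every LMPP library (7.11% of all genes). The median log2 difference of the list was -1.88. Their summed level was 769 to 1255 ppm in HSC and 492 to 578 ppm in LMPP, without overlap. Gata1, the master transcription factor of red cells and megakaryocytes (X chromosome, 7959260 to 7978071), was 188, 106 and 138 normalised counts in HSC. In LMPP it was 0.125, 7.90 and listed at 0. It fell by 4.61 (SE 0.79, limma adjusted p = 0.00383). Its cofactor Zfpm1 was 613, 483.5 and 470.1 in HSC and 125, 89.1 and 155 in LMPP, lower in every library without passing (log2 difference -2.08, limma adjusted p = 0.182).

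Ermap, an adhesion protein of red cells, fell furthest of all genes, from 499.6, 321 and 629 in HSC to 1.45, 0 and 5.08 in LMPP. The log2 difference was -6.31 (SE 1.14, limma adjusted p = 0.00532). Car1, a red cell carbonic anhydrase, was 1199, 627 and 2025 in HSC and 1.45, 18.9 and 49.7 in LMPP, a log2 difference of -5.93 (limma adjusted p = 0.0144). HSC replicate 3 was its highest library, and every HSC library was above every LMPP library. Its relative Car2 was 2086 to 4092 in HSC and 1901 to 2418 in LMPP, overlapping, with a log2 difference of -0.48. Aqp1, a water channel of red cells, was 190, 232 and 391 in HSC and 3.27, 6.71 and 27.4 in LMPP, a log2 difference of -4.27 (limma adjusted p = 0.00532). Tfrc, the transferrin receptor, and Nfe2, a factor of red cells and platelets, had log2 differences of -0.45 and -0.14 and did not pass.

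Outside these lists Mfsd2b, an exporter of sphingosine 1-phosphate in red cells and platelets, fell by 6.19. It was 537, 505 and 447 in HSC and 1.45, 6.75 and 1.16 in LMPP (SE 0.89, limma adjusted p = 0.00116). The HSC libraries lay close together and far above LMPP. Ces2g, a carboxylesterase with near relatives in the same gene cluster, fell by 5.26 (266 to 574 against 0.128 to 15.6). How reads shared with those relatives were counted is not stated, so its values are uncertain. Atp1b2, a sodium pump subunit, fell by 5.16 (132 to 366 against 0 to 14.3), Paqr9 by 4.36 (62.9 to 277 against 0.961 to 3.11) and Tuba8, an alpha-tubulin, by 4.36 (91.8 to 209 against 0.129 to 5.74).

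Stem cell surface and quiescence genes fell in part. Of 27 tested 4 fell (0.253% of all genes fell), none rose, and 12 were lower in every LMPP library (7.11% of all genes), with a median of -0.56. The 4 were Vwf and Itga2b, which the platelet list also holds, with Aldh1a1 and Tek. Aldh1a1, a retinaldehyde dehydrogenase, was 157, 170.2 and 158 in HSC and 0.124, 0 and 3.76 in LMPP. It fell by 5.01 (SE 0.84, limma adjusted p = 0.00344), with the HSC libraries close together. Tek, the angiopoietin receptor TIE2, was 152, 119 and 159 in HSC and 5.40, 20.7 and 0 in LMPP, a log2 difference of -3.89 (limma adjusted p = 0.0324). Its ligand gene Angpt1 was 1612 to 2711 in HSC and 1517 to 1595 in LMPP, at a log2 difference of -0.52 that did not pass.

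Among 25 stem cell transcription factor genes tested, Zbtb16 alone passed (0.37% of all genes passed) and the median was -0.03. Zbtb16, the zinc-finger factor PLZF, was 172, 251 and 131 in HSC and 5.39, 6.17 and 7.70 in LMPP. It fell by 4.12 (SE 0.70, limma adjusted p = 0.0038). Runx1, Erg, Lmo2 and Foxo3 had log2 differences of -0.01, -0.03, 0.28 and 0.10 and did not pass. Of 14 Hox genes tested none passed, the median was 0.48, and no gene had separate groups (14.8% of all genes did).

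The TAL1 complex joins TAL1 to E proteins, LIM-domain factors and GATA factors. Of 17 genes of this complex, its E proteins and Id inhibitors tested, Gata1 fell and none rose (0.253% of all genes fell). The median was -0.10. Gata2 was 1883, 1486 and 1494 normalised counts in HSC and 319, 411 and 444 in LMPP. Tal1 was 1746, 2109 and 1523 in HSC and 667, 984 and 684 in LMPP. Both were lower in every LMPP library, with log2 differences of -2.04 (SE 1.14) and -1.21 (SE 0.70), and neither passed (limma adjusted p = 1 for each). Gata2 was 0.0324 and 0.5 in the 2 libraries with the fewest genes above 1 normalised count. These were Ctrl GFP-positive HSC replicate 2 and KO GFP-positive LMPP replicate 3, and without them Gata2 passed and Tal1 did not. Over 20 other fits Gata2 passed in 5 and Tal1 in 4, among them the fit of the 6 libraries alone. Passing in some other fits was not particular to these genes. Zfpm1 and Ms4a2 passed in 6 of the 20, Rag2 and Tcf4 in 3, and Ly6a, Mpo and Cd44 in 2. Tcf4, an E protein gene, was 897 to 1145 in HSC and 1602 to 2117 in LMPP, higher in every library at 0.88 (limma adjusted p = 0.238).

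Granulocyte-monocyte genes moved in both directions. Of 26 tested 2 fell and 1 rose, Cd33 (0.253% and 0.117% of all genes), and the median was -0.36. Elane, neutrophil elastase, was 423, 1206 and 481 normalised counts in HSC and 5.38, 3.30 and 35.9 in LMPP. It fell by 5.48 (SE 0.90, limma adjusted p = 0.00276). Ms4a3, a membrane protein of granulocyte-monocyte progenitors, was 53.4, 48.7 and 21.0 in HSC and 0.128, 0 and 5.08 in LMPP, a log2 difference of -2.97 (limma adjusted p = 0.0289). Mpo, myeloperoxidase, was 14803, 24928 and 8143 in HSC and 3909.8, 5862 and 6748 in LMPP. It was lower in every LMPP library, and its log2 difference of -1.43 did not pass (limma adjusted p = 0.506). Lyz2, Prtn3, Csf3r and Spi1 overlapped between the populations, with log2 differences of -0.13, -0.17, 0.10 and 0.56.

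Of 11 mast cell, basophil and eosinophil genes tested Cpa3, the mast cell carboxypeptidase, fell (0.253% of all genes fell), and the median was -0.96. It was 123, 217 and 351 in HSC and 0.130, 3.30 and 2.48 in LMPP, a log2 difference of -5.19 (SE 1.03, limma adjusted p = 0.0139). Ms4a2, an IgE receptor subunit, was 52.1, 135 and 17.0 in HSC, and in LMPP 0.128 or listed at 0, at a limma adjusted p of 0.0777. The list summed to 30.4 to 77.7 ppm in HSC and 2.21 to 25.4 ppm in LMPP.

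**Figure D3:**
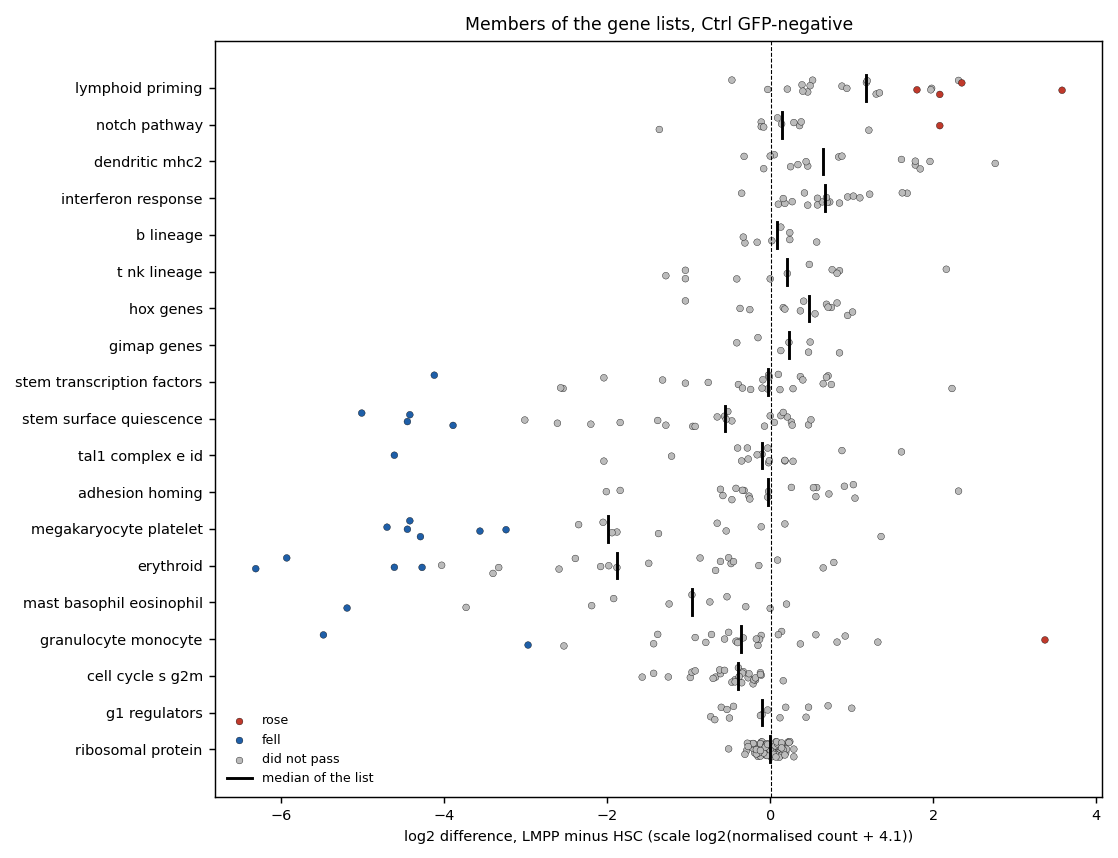
Log2 difference of LMPP minus HSC (x axis) for each tested member of 19 gene lists (y axis); red points rose, blue points fell, grey points did not pass, black bars are list medians and the dashed line is the median of all genes, 0.01. Megakaryocyte, erythroid and mast cell lists lie left of the line with medians of -1.99, -1.88 and -0.96, and lymphoid priming lies right of it at 1.18.

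No gene of the remaining lists passed, and some of them leaned to 1 side. All but 1 of 30 S and G2/M phase genes were lower in LMPP, with a median of -0.39, and 10 were lower in every LMPP library. Over all genes 48.6% were lower and 7.11% were lower in every LMPP library. Mki67, the proliferation antigen, was 7664, 8525 and 5018 in HSC and 5796, 5031 and 4641 in LMPP, overlapping. Cdk6, the kinase that drives progenitors out of quiescence, was 8585, 9987 and 6506 in HSC and 4000.2, 5642 and 5467 in LMPP, lower in every library at -0.73 (limma adjusted p = 0.419). Of 20 interferon response genes 19 were higher in LMPP, with a median of 0.67, and 5 were higher in every LMPP library. Over all genes 51.4% were higher and 7.68% were higher in every LMPP library. Dendritic cell and antigen presentation genes (16 tested) had a median of 0.65, and 5 were likewise higher in every LMPP library. H2-Aa, an MHC class II chain, was 42.2, 106 and 72.9 in HSC and 299.6, 215 and 232 in LMPP, at a limma adjusted p of 1.

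Adhesion and homing genes (21 tested) were higher or lower in about equal number, 9 and 12. Cd44, the hyaluronan receptor, was 1634, 1418 and 1491 in HSC and 2228, 2832 and 2433 in LMPP, at 0.72 (limma adjusted p = 0.229). Itga6, an integrin of stem and progenitor cells, was 1058, 901 and 908 in HSC and 644, 657 and 603 in LMPP, at -0.58 (limma adjusted p = 1). Both were separate between the populations, in opposite directions. The 77 ribosomal protein genes had a median of 0 and a range from -0.51 to 0.29. Stroma and endothelium markers summed to 63 to 94.7 ppm in HSC and 80 to 138.8 ppm in LMPP, overlapping, and none of 7 passed.

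The 60 genes were then read in other sorted cells, which share no library with these 6. The fit used the same spread of a gene for every contrast, so passing in both is not independent. Only the signs and sizes of the differences rest on separate libraries. In KO GFP-negative cells LMPP against HSC gave 67 genes that rose (0.413%) and 75 that fell (0.463%), 0.876% of all genes. Of the 19 genes that rose in Ctrl, 13 rose there too (68.4% of the 19 and 19.4% of the 67), and all 19 had the same sign. Of the 41 that fell, 21 fell there (51.2% of the 41 and 28% of the 75), and all 41 had the same sign. Over all genes 49.1% were higher and 50.9% lower in KO. The medians were 1.78 for the 19 and -3.00 for the 41. Itga2b was 802, 693 and 402 in KO HSC and 47.9, 94.4 and 16.2 in KO LMPP. Gata1 was 122.1, 259.5 and 122.3 in KO HSC and 7.67, 44.6 and 0.237 in KO LMPP. Both fell there (-3.70 and -3.58, limma adjusted p = 0.0123 and 0.0208). Vwf was 98.4, 162 and 31.9 against 148, 9.87 and 27.3, overlapping. No gene's difference itself differed between the genotypes in limma's interaction test (0%), while 384 genes had an unadjusted p under 0.05 (2.37%).

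In Ctrl GFP-positive cells 93 genes rose (0.574%) and 52 fell (0.321%), 0.894% of all genes. All 19 genes that rose in GFP-negative cells had the same sign there and 2 passed, Dntt and Tlr7, 10.5% of the 19 and 2.15% of the 93. Of the 41 that fell, 32 had the same sign and 5 passed, Elane, Ms4a3, Cpa3, Zbtb16 and Itga2b, 12.2% of the 41 and 9.62% of the 52. Their medians there were 1.05 and -0.19, and 59.9% of all genes were higher and 40.1% lower. The 60 genes were chosen in the GFP-negative cells, so a smaller median elsewhere is no test. Many of the platelet and red cell genes were near 0 in both GFP-positive populations. Pf4 was 0.254, 0.0316 and 1.87 in GFP-positive HSC, Gata1 was 0.251, 0.0313 and 0.238, and Vwf was 5.20, 0.0316 and 1.87. The GFP-negative HSC libraries were all above 100 for these 3 genes. Elane was higher there, at 11753, 2232 and 8350 in GFP-positive HSC and 35.9, 0 and 37.2 in GFP-positive LMPP. Dntt was 1619, 4692 and 3740 in GFP-positive HSC and 10625, 14739 and 9885 in GFP-positive LMPP. Every GFP-positive HSC library was above every GFP-negative HSC library.

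The change itself differed between the GFP gates for 4 genes (0.0247%) in limma's interaction test, 3 with a more positive difference in GFP-negative cells (0.0185%) and 1 with a more negative one (0.00617%), and 1030 genes had an unadjusted p under 0.05 (6.35%). Among the 60 genes this was so for St8sia6 alone. St8sia6, a sialyltransferase, was 116, 76.0 and 73.9 normalised counts in GFP-negative HSC and 0.128, 6.75 and 0 in GFP-negative LMPP, a log2 difference of -3.99 (limma adjusted p = 0.00399). In GFP-positive cells it was under 1 in HSC and 8.78, 25.1 and 40.3 in LMPP.

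**Figure D4:**
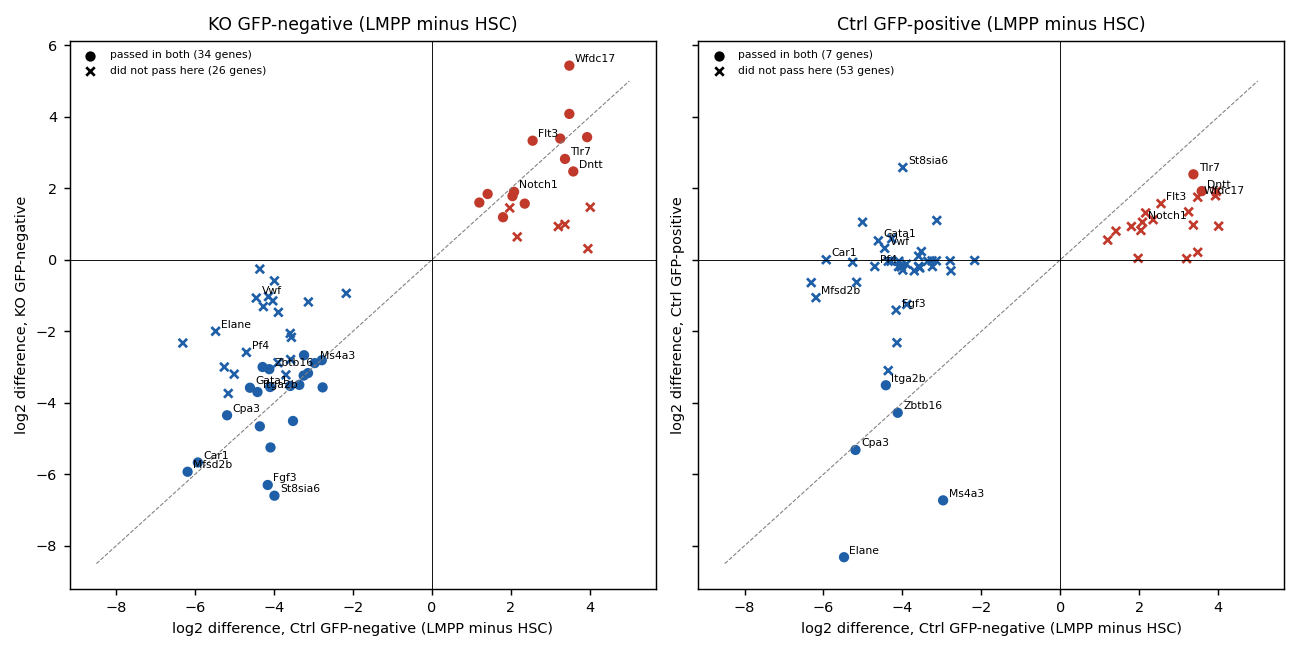
Log2 difference of LMPP minus HSC for the 60 genes that passed in Ctrl GFP-negative cells (x axis) against the same genes in KO GFP-negative cells (left) and Ctrl GFP-positive cells (right); red rose and blue fell in Ctrl GFP-negative cells, circles passed in both, crosses did not pass in the other cells, and the dashed line marks equal values. In KO cells 34 of the 60 passed and all share their sign; in GFP-positive cells 7 passed and many genes that fell lie near 0.

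Which genes passed changed when 1 library was left out. Each such fit sets 3 libraries against 2, so fewer genes may pass whichever library is missing. Without LMPP replicate 2, 29 genes passed, and without LMPP replicate 1, 32. Without HSC replicate 3, the library that stood apart, 36 passed, 33 of them among the 60, and without HSC replicate 2 it was 39. Of the 36 named genes 17 passed whichever of the 6 libraries was left out, among them Dntt, Notch1, Ighm, Satb1, Tlr7, Flt3, Mfsd2b, Pf4, Gp5, Gata1, Itga2b, Aldh1a1, Zbtb16, Elane and Ces2g. Vwf was lost without LMPP replicate 1, and Ermap and Aqp1 without LMPP replicate 2 (highest limma adjusted p 0.0504, 0.0531 and 0.0707). Slc35d3, Itgb5 and Wfdc18 passed in none of the 6 fits. Cd33 was lost without HSC replicate 1 and without LMPP replicates 1 or 2. Wfdc17 and Cpa3 were lost without HSC replicates 2 or 3 and without LMPP replicates 1 or 2. Car1 was lost without HSC replicates 1 or 3 and without LMPP replicates 1 or 2, and Ms4a3 without HSC replicates 1 or 2 and LMPP replicates 1 or 2. Tek, Rab27b, Emp1, Atp1b2 and Snn passed in 1 of the 6 fits, Camk1d and Ncf1 in 2 and Tuba8 in 3. With libraries scaled to equal medians Satb1 (limma adjusted p = 0.0763), Camk1d, Ncf1, Snn and Wfdc18 did not pass. With a pseudocount of 0.1 ppm Itga2b (limma adjusted p = 0.0624), Car1, Atp1b2, Itgb5, Rab27b, Slc35d3 and Tek did not, and with 2 ppm Cpa3, Emp1, Ms4a3 and Wfdc18 did not. In a fit of the 6 libraries alone Treml1, Ms4a3, Ncf1, Snn and Itgb5 were lost, and in a fit of the Ctrl libraries Car1, Tek, Tuba8, Camk1d, Emp1, Itgb5, Ms4a3, Ncf1, Snn and Wfdc18.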

How the data were processed

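Total RNA of sorted mouse LSK cells was made into libraries with a low-input kit and sequenced for 76 cycles, per the labels. The submitters' processing notes name Trimmomatic 0.33, HTSeq 0.6.1, edgeR without a version, and the build mm10. The aligner, strand setting and normalisation function were not given in the sources used here. Each deposited value is a signal, namely a count that the authors had normalised. Whole numbers, within 0.001, made up only 0.594% of the values above 0. Reads could therefore not be recovered, and no count model was fitted. GENCODE M21 (GRCm38/mm10) gave names and coordinates for 16985 of 17149 genes.

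Genes with at least 1 ppm of the library total in at least 3 libraries were kept (16215). After adding a pseudocount of 4.1 normalised counts (0.5 ppm of the mean total), log2 was taken. limma 3.58.1 (R 4.3.3) estimated 8 group means over all 24 libraries, with a trended empirical Bayes prior of 9.53 and 16 residual degrees of freedom, so libraries outside the comparison share in its estimate of spread. Those include 2 of low detection. p-values were adjusted by Benjamini-Hochberg over all genes within each contrast. Interactions with the GFP gate and with genotype were fitted in the same model, and the procedure was tested on simulated data. Alternatives changed the scaling, the pseudocount, the filter, the libraries fitted, the weights and the replicate block, and left out each library.

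Named genes were the 15 largest rises and falls that passed, without overlap and with at least 5 ppm in the higher group, excluding predicted genes. To these were added sort, stem and recombination genes that are always read, and up to 8 members of each list (those that passed, then those of highest level). The members and lists were chosen with earlier results of these data known. Lists are described by counts and medians only. A few genes under this rule are not reported here but remain in the counts.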

Additional observations from a re-analysis of the deposited data

Results flagged for a closer look

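The difference between LMPP and HSC in Ctrl cells itself differed between the GFP gates for 4 genes in limma's interaction test, taken as the GFP-negative log2 difference minus the GFP-positive one. St8sia6 gave -6.57 (SE 0.98, limma adjusted p = 0.00372): it was 73.9 to 116 normalised counts in GFP-negative HSC against at most 6.75 in LMPP, and in GFP-positive cells under 1 in HSC against 8.78 to 40.3 in LMPP. The other 3 are T lineage genes that were near 0 in the 6 GFP-negative libraries, apart from Trbc1 at 10.7 in HSC replicate 2. Bcl11b, a T lineage transcription factor, gave 4.98 (SE 0.61, limma adjusted p = 0.000262) and was 79.3, 186 and 136 in GFP-positive HSC against at most 0.159 in GFP-positive LMPP. Trbc1, a T cell receptor beta constant region with a near-identical copy, gave 5.58 (SE 0.91, limma adjusted p = 0.0102) and was 162, 423 and 346 against at most 1.62. Tcrg-C2, a constant region of the gamma receptor chain, gave 4.72 (SE 0.80, limma adjusted p = 0.0154) and was 121, 239 and 34.7 against at most 0.16. GFP-positive HSC replicate 2 is a library of low detection. Without it 3 of the 4 passed, all but Tcrg-C2. When each of the 12 Ctrl libraries was left out in turn, Tcrg-C2 did not pass in 8 fits and Trbc1 in 3, while Bcl11b and St8sia6 passed in all 12. Neither Trbc1 nor Tcrg-C2 passed with array weights or in the Ctrl libraries alone. Trbc1 did not with a pseudocount of 0.1 ppm, and Tcrg-C2 was not tested under a filter of 5 ppm. With the replicate block in the libraries compared alone none of the 4 passed, Bcl11b and St8sia6 included.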

How the results depend on the processing

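No alternative reversed the sign of any gene among the 60. The count of 60 was 97 with quantile normalisation, 443 with array weights, 131 without the 2 libraries of low detection and 182 in the 12 GFP-negative libraries alone, a fit chosen after seeing the data. The first of these held 58 of the 60, the next 2 all 60 and the last 58. Leaving out 1 library gave 29 to 51 genes. The other settings gave between 43 and 89 (the 89 of the 6 libraries alone held 44 of the 60), and setting library totals equal moved the median of all genes to 0.15. For the GFP interaction (4 genes) the count was 15 with a pseudocount of 2 ppm, 11 without the 2 libraries of low detection and 2 to 31 with 1 library left out, 19 without Ctrl HSC GFP-positive replicate 1 and 31 without its replicate 3. For the genotype interaction (0 genes) it was 1 with a pseudocount of 2 ppm, 14 with array weights and 0 to 2 with 1 library left out. The cause was not tested. Same-numbered LMPP and HSC libraries deviated from their group means with correlations of -0.03, 0.12 and 0.06, and not every library correlated best with its own number, so the numbers were not taken to pair the samples. With the replicate block 68 genes passed, 56 of them among the 60. With the replicate block in the libraries compared alone 43 passed, 27 of them among the 60, and 12 of the 36 named genes did not pass: Gata1, Gp5, Paqr9, Treml1, Tek, Tuba8, Rab27b, Ms4a3, Emp1, Itgb5, Snn and Wfdc18. The GFP interaction then gave 6 and 0 genes and the genotype interaction 0 and 5. No gene stood at 0 in replicate 1 of either population. In replicates 2 and 3 it was 1331 and 966 genes in LMPP and 1254 and 1530 in HSC. In LMPP replicate 1 Gata1, Aldh1a1 and Ms4a3 were at 0.125, 0.124 and 0.128, and such values are not set above a listed 0 elsewhere. The Ctrl GFP-positive HSC libraries held no gene at 0 either. Depth in reads is unknown, so how far the near-0 values of LMPP can be told from 0 is not known.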

Other observations

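A few abundant RNAs differed widely between the 6 libraries, and they are named here after their values were seen. Gm42418 was 713267, 499092 and 209641 normalised counts in HSC and 379125, 93660.2 and 65527.9 in LMPP, and Gm23935 was 150976, 82158.5 and 32557.6 against 84935.3, 13719.2 and 10836.5. Lars2, named for a mitochondrial leucyl-tRNA synthetase, was 95553.4, 78983.8 and 59402.8 against 48136.9, 22574.4 and 16466.9. Whether the reads counted for these genes came from their own transcripts was not tested. Lars2 was lower in every LMPP library at -1.55 and the other 2 overlapped, at -1.67 each, and none passed (limma adjusted p = 0.441 for Lars2). Their part in the scaling of the libraries was not tested beyond the alternative scalings.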
